A study of Mus musculus with 12 samples.

Results

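The genes described here are the ligands and receptors of the tumour necrosis factor (TNF) superfamily, chosen by symbol and not by level. They are the genes whose symbol starts with Tnfrsf or Tnfsf, together with Tnf, Lta, Ltb, Ltbr, Fas, Fasl, Cd27 and Cd70, apart from 3 family symbols that are not analysed here. The rule found 38 of the 46072 genes in the authors' deposited table: 14 ligands, 22 receptors, 1 readthrough gene and 1 antisense gene. RNA sequencing had been done on 3 myeloid cell types, all derived in culture from marrow of C57BL/6J mice that were 6 to 8 weeks old. Osteoclasts, which resorb bone, received RANKL at 50 ng/ml together with M-CSF at 30 ng/ml. Dendritic cells, called immature in the labels, were grown with GM-CSF (20 ng/ml). Macrophages were grown with M-CSF alone (30 ng/ml). The precursors of osteoclasts and macrophages had first spent 5 days in M-CSF at 100 ng/ml, and differentiation took 8 to 10 days. Cells with a single nucleus were taken off the osteoclast cultures with Accutase. Each cell type has 4 libraries from 4 marrow extractions, and in each experiment 1 mouse gave all 3 cell types. The cells are unsorted cultures, and the labels name no engineered allele.

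Most defining markers had their highest mean in the labelled cell type: 6 of 8 for osteoclasts, 8 of 8 for dendritic cells and 7 of 8 for macrophages. The exceptions had their highest mean in dendritic cells. They were Ocstamp (1589 in osteoclasts, 2583 in dendritic cells and 14.4 in macrophages), Atp6v0d2 (17755, 20465 and 3041) and Fcgr1 (83.4, 2944 and 1812). Ctsk, the collagen-cutting protease of osteoclasts, had authors' means of 87805 in osteoclasts, 1472 in dendritic cells and 137 in macrophages. Cd74, the invariant chain of MHC class II, had 4031 in osteoclasts, 237672 in dendritic cells and 3163 in macrophages, and Csf1r, the receptor of M-CSF, had 34250.4, 29251 and 63822 in the same order. These means are reads per gene, scaled by the authors with a size factor per library and averaged over the 4 libraries, and they sum to 2.42e+07 in osteoclasts, 2.77e+07 in dendritic cells and 2.50e+07 in macrophages. For low genes the mean still carries the whole reads of each library, and for 30 members they could be recovered in at least 1 cell type. The libraries are called a to d by size factor in each cell type, a name that cannot be tied to a replicate number or to the same letter in another cell type. In cultures of this kind a larger number of cells of a type and more RNA per cell cannot be told apart.

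TNF superfamily ligands are mostly trimeric membrane proteins that can be cut free, and their receptors are transmembrane proteins that cluster when the ligand binds. Receptors with a cytoplasmic death domain can recruit caspases, and many receptors, with or without that domain, act through TRAF adaptors and turn on NF-kappa-B and MAP kinases. A few receptors lack a working tail and act as decoys. In bone, RANKL drives osteoclast formation and TNF can add to it, and in dendritic cells and macrophages the family carries signals to and from lymphocytes.

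The upstream stretches of 5 members are shown because those genes gave the widest differences between the cell types (Tnfrsf9, Tnfsf8, Tnfsf15) or sit side by side and were highest in dendritic cells (Tnf, Ltb). They are RefSeq promoters of GRCm38.p6, read 5′ to 3′ on the gene's strand, ending at the RefSeq start or earlier where an exon of the same gene in GENCODE M21 begins. Capitals mark matches to GAGGAA, the core of the PU box, to TATAAA, the TATA box, and to GGGNNTTTCC, an NF-kappa-B motif, each on either strand.
Tnfrsf9 (chr4:150919905-150920154, + strand): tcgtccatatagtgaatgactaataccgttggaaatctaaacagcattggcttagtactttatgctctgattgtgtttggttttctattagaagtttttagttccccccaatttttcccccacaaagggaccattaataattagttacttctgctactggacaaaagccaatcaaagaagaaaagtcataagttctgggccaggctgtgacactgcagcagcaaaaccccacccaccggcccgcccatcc
Tnfsf15 (chr4:63745114-63745309, - strand): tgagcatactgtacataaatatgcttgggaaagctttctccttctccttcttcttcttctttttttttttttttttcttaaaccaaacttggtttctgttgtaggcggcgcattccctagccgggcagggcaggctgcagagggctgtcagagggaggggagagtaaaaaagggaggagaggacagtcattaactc
Tnfsf8 (chr4:63861348-63861534, - strand): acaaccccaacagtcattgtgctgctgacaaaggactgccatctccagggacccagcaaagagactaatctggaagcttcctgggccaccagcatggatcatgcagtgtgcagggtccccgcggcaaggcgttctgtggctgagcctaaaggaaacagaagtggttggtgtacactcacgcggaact
Ltb (chr17:35194257-35194438, + strand): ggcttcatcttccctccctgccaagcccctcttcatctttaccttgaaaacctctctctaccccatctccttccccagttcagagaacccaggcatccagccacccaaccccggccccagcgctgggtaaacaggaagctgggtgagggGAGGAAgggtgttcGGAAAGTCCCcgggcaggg
Tnf (chr17:35202008-35202257, - strand): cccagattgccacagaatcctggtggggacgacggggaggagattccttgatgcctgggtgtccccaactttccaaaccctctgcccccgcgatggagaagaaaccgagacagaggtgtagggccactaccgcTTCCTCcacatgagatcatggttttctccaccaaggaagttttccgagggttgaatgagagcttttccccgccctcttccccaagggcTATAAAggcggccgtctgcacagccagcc
Tnfrsf9 spans chr4:150914562-150946102 in GENCODE M21, and both of its RefSeq starts lie inside that span. The second of them has the NF-kappa-B motif as GGGGATTTCC at 43 to 34 bases before it and the AP-1 motif TGANTCA as TGAGTCA at 15 to 9 bases before it. In GENCODE M21 an exon of Tnfrsf9 begins 81 bases before this second start, so both motifs lie past the beginning of that exon. The stretch before the second start is not shown. The Ltb stretch holds the NF-kappa-B motif on the opposite strand, as GGAAAGTCCC at 87 to 78 bases before the start. The third member with that motif is Tnfrsf25. RefSeq promoters were matched for 31 of the 38 members, 35 stretches of 250 bases. The NF-kappa-B motif lay in 8.57% of these stretches and in 1.41% of all 32851 promoters. The AP-1 motif lay in 17.1% and 6.75%, the TATA box in 17.1% and 12.4%, and the PU box in 34.3% and 23.3%. No match was found to any of the 4 motifs in the stretches of Tnfsf15 and Tnfsf8 or before the first start of Tnfrsf9. A match is a run of letters and does not show that a factor binds.

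Levels differed widely between members. By the authors' means, 24 members reached 100 in at least 1 cell type, 16 of them in all 3, 6 peaked between 10 and 100, and 8 stayed under 10 everywhere. The mean was highest in dendritic cells for 27 members, in osteoclasts for 5 and in macrophages for 5, and Fasl was at 0 in all 12 libraries. The matching shares over all genes were not computed, and the authors' means of all genes also sum highest in dendritic cells. Per kilobase of exon in GENCODE M21, the most abundant member was Tnfrsf1b in osteoclasts (an authors' mean of 2165 per kilobase), Tnfrsf9 in dendritic cells (6279) and Tnfrsf1b in macrophages (2865). Tnfrsf1a came second in osteoclasts (1719.6) and macrophages (2114), and Tnfrsf1b came second in dendritic cells (4221).

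**Figure D1:**
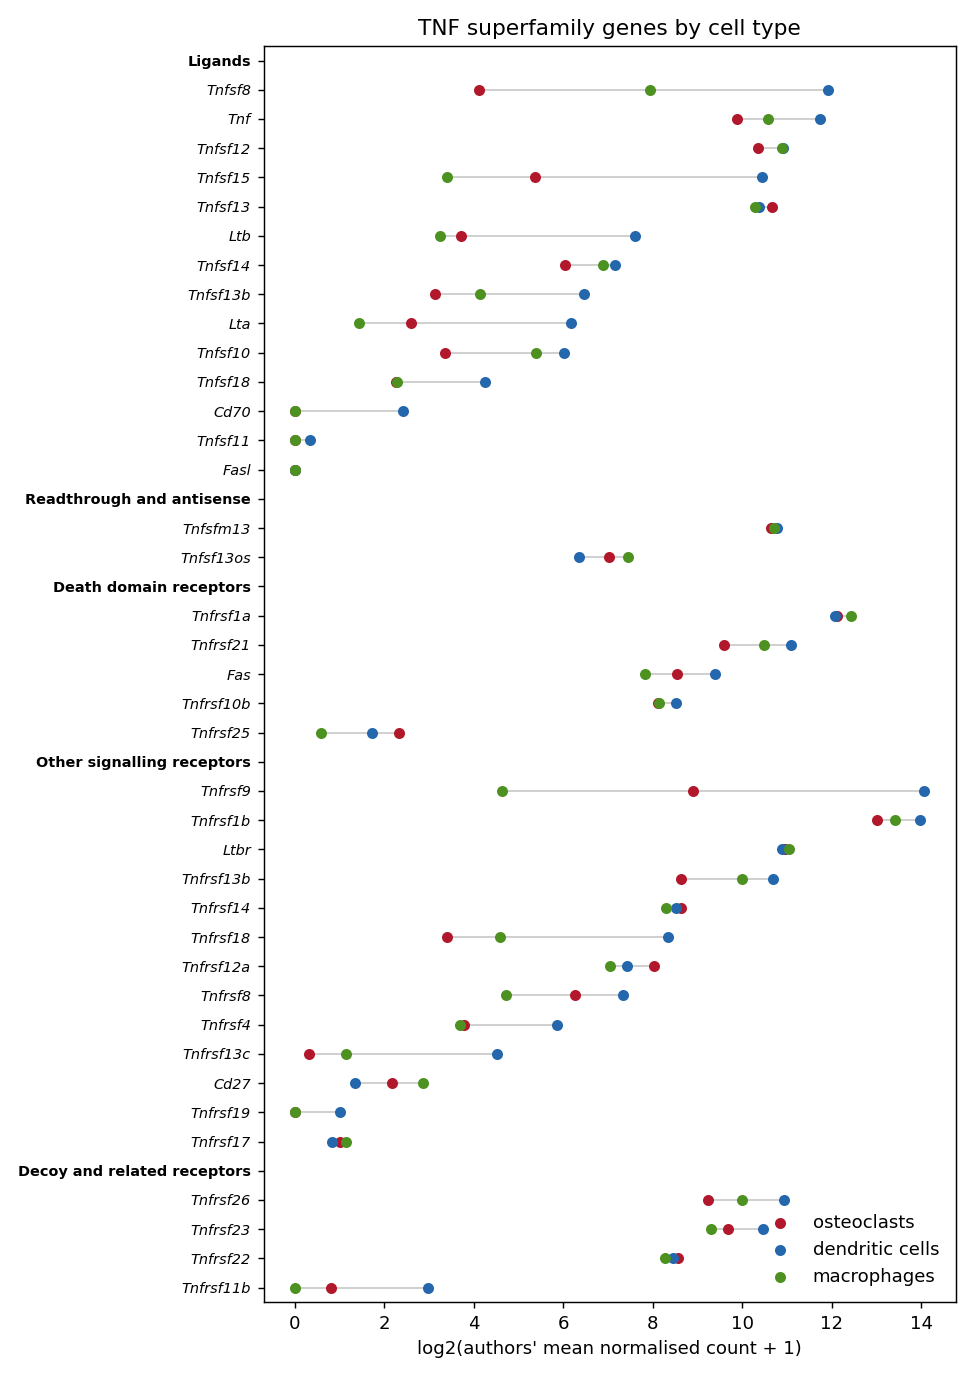
Authors' mean normalised count of each of the 38 members on a log2(mean + 1) axis, in osteoclasts (red), dendritic cells (blue) and macrophages (green). Members are grouped by role and ordered within a role by the mean in dendritic cells. The blue point lies farthest to the right for 27 members, and Tnfrsf9, Tnfsf8 and Tnfsf15 have the widest spread between cell types.

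A member was called where the authors' adjusted p, taken over all genes past their filter on low counts, was under 0.05. For osteoclasts over dendritic cells, the authors' deposited table holds an adjusted p for 35 members. Of these, 0 were called higher in osteoclasts (0 also at an unadjusted p under 0.05 in the authors' test), where 16.8% of all 21217 genes tested were, and 22 were called lower, where 20.1% of all genes were (36.9% in either direction). With the cell types scaled to equal totals, a shift of 0.19 in log2, the split of the members became 3 higher and 20 lower, and the share of higher calls among all called genes became 61.4% in place of 45.4%. Between dendritic cells and macrophages, 34 members had an adjusted p, and 18 were called higher and 3 lower in dendritic cells, against 20.3% higher and 16.4% lower of all 20730 genes tested (36.7% in either direction). Equal totals, a shift of -0.15, left both member counts as they were and put the share of higher calls among all called genes at 42.8% in place of 55.4%. Between osteoclasts and macrophages, 33 members had an adjusted p, and 6 were called higher and 10 lower in osteoclasts, against 14.5% higher and 14.7% lower of all 17822 genes (29.3% in either direction).

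The median deposited log2 fold change of the members with an adjusted p was -1.10 for osteoclasts over dendritic cells, 0.81 for dendritic cells over macrophages and -0.06 for osteoclasts over macrophages. Over all genes tested the medians were -0.05, 0.05 and -0.03. The 18 members called higher in dendritic cells than in macrophages were also the 18 called higher in dendritic cells than in both other types, and 0 were called lower there than in both. In osteoclasts, 9 members were called lower than in both other types and 0 higher. Macrophages had 1 member called higher than in both, Tnfrsf1a, and 4 called lower, Fas, Tnfsf15, Tnfrsf8 and Tnfrsf9. The comparisons share their cell types, so these counts are not independent of each other, and they are a description of members past the filter. How many of all genes show each of these patterns was not computed, so the counts have no background to be set against. Fasl, Ltb and Tnfsf11 had no adjusted p in any comparison, Tnfrsf17 had none for osteoclasts over macrophages and Tnfrsf19 none for either cell type over macrophages. A total of 11 members were called in no comparison, among them Fasl, Ltb and Tnfsf11, which had no adjusted p to be called by.

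**Figure D2:**
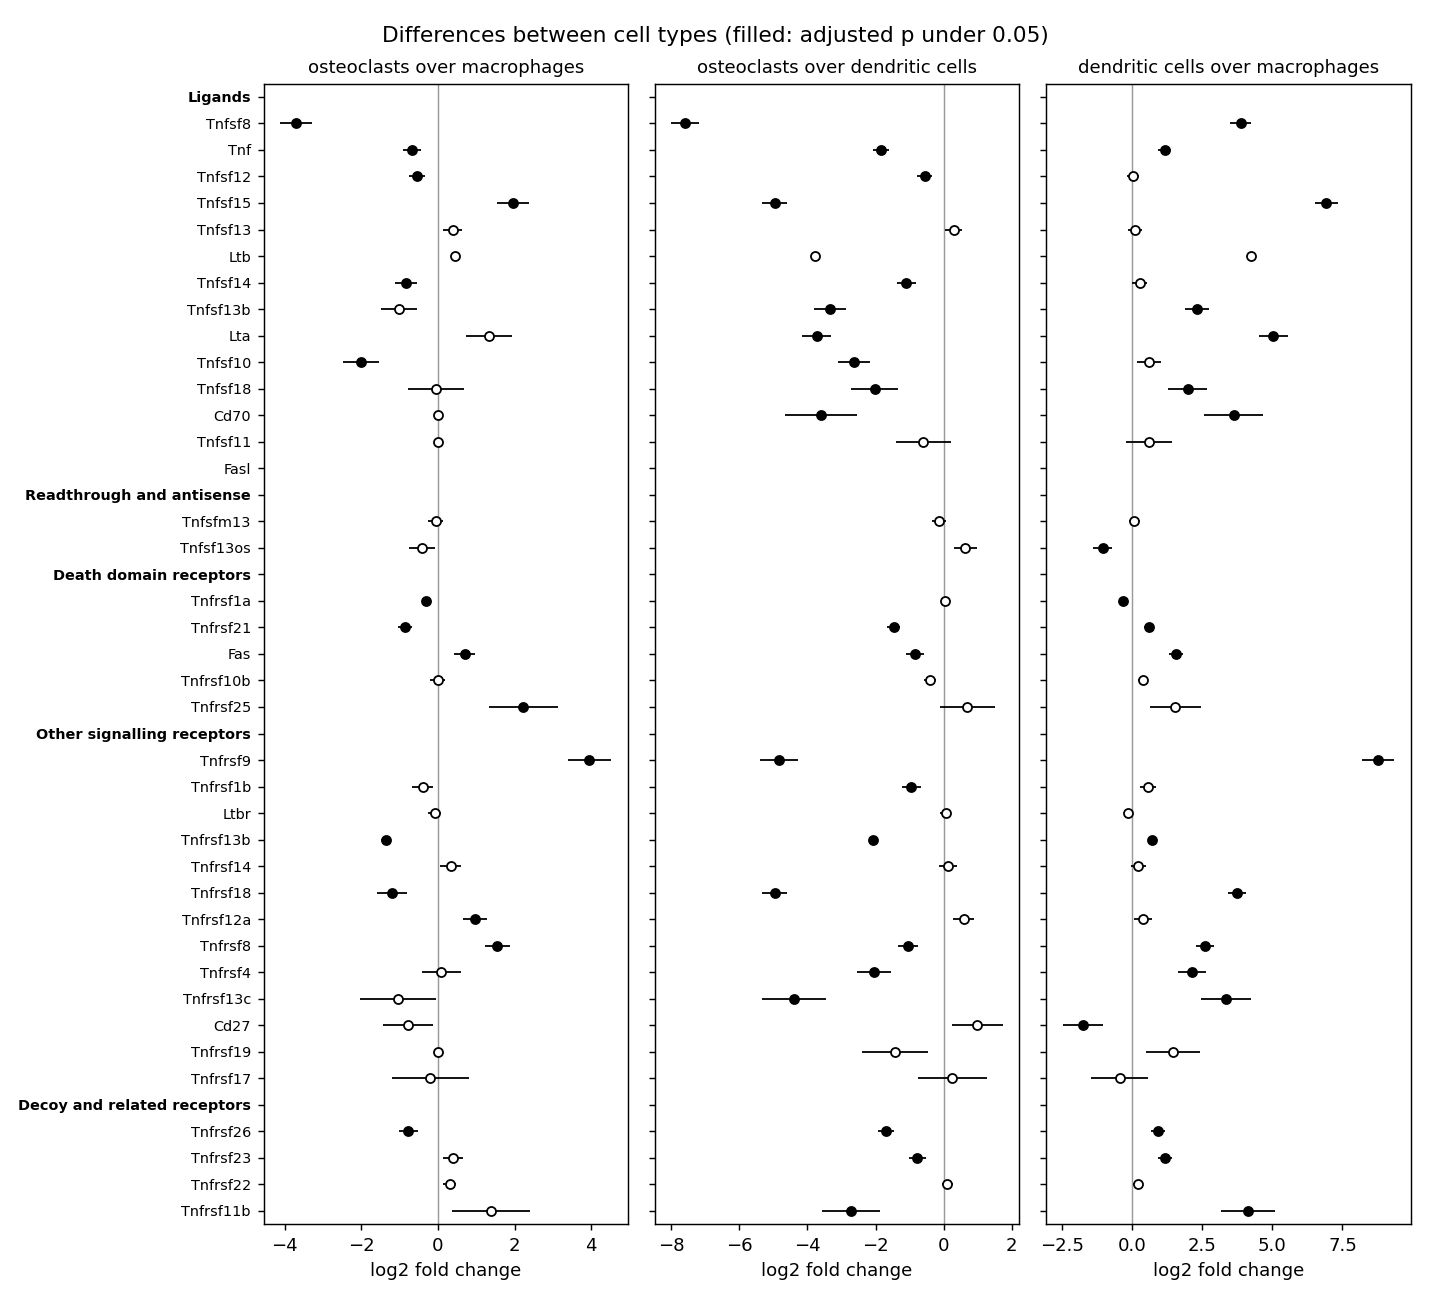
Deposited log2 fold changes of the members for osteoclasts over macrophages, osteoclasts over dendritic cells and dendritic cells over macrophages; bars are ±1 standard error, computed from the authors' p-value, and filled points have an adjusted p under 0.05. In the middle panel 22 filled points lie below 0 and 0 above it, while the left panel has 6 above and 10 below. Points with no bar have no standard error to draw, Ltb because it has no p-value.

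Among the ligands, Tnfsf8 and Tnfsf15 differed most. Tnfsf8, the ligand of CD30, had 16.9, 31.8, 6.01 and 11.1 normalised reads in osteoclast libraries a to d, a mean of 3888 by the authors' table in dendritic cells, and 245, 144, 456 and 133 in macrophage libraries a to d. All osteoclast libraries lay below all macrophage libraries. The authors' deposited table put osteoclasts 191-fold below dendritic cells (log2 fold change -7.58, SE 0.41, adjusted p 4.53e-73) and 13.1-fold below macrophages (-3.71, SE 0.41, adjusted p 2.91e-17). In the same table dendritic cells were 14.6-fold above macrophages (3.87, SE 0.38, adjusted p 2.38e-22).

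Tnfsf15, also called TL1A, binds the death receptor Tnfrsf25. It had 22.8, 46.7, 34.0 and 56.4 normalised reads in the osteoclast libraries, a mean of 1379 by the authors' table in dendritic cells, and 10.5, 10.7, 5.85 and 10.8 in the macrophage libraries. The order differed from that of Tnfsf8: osteoclasts lay above macrophages without overlap (log2 fold change 1.96 in the authors' deposited table, SE 0.42, adjusted p 3.47e-05). Osteoclasts were 31.2-fold below dendritic cells in that table (-4.96, SE 0.37, adjusted p 9.45e-40), and dendritic cells were 121-fold above macrophages (6.92, SE 0.41, adjusted p 9.27e-63). Tnfsf15 and Tnfsf8 are neighbours on chromosome 4, with 86.2 kb and no protein-coding gene between them.

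**Figure D3:**
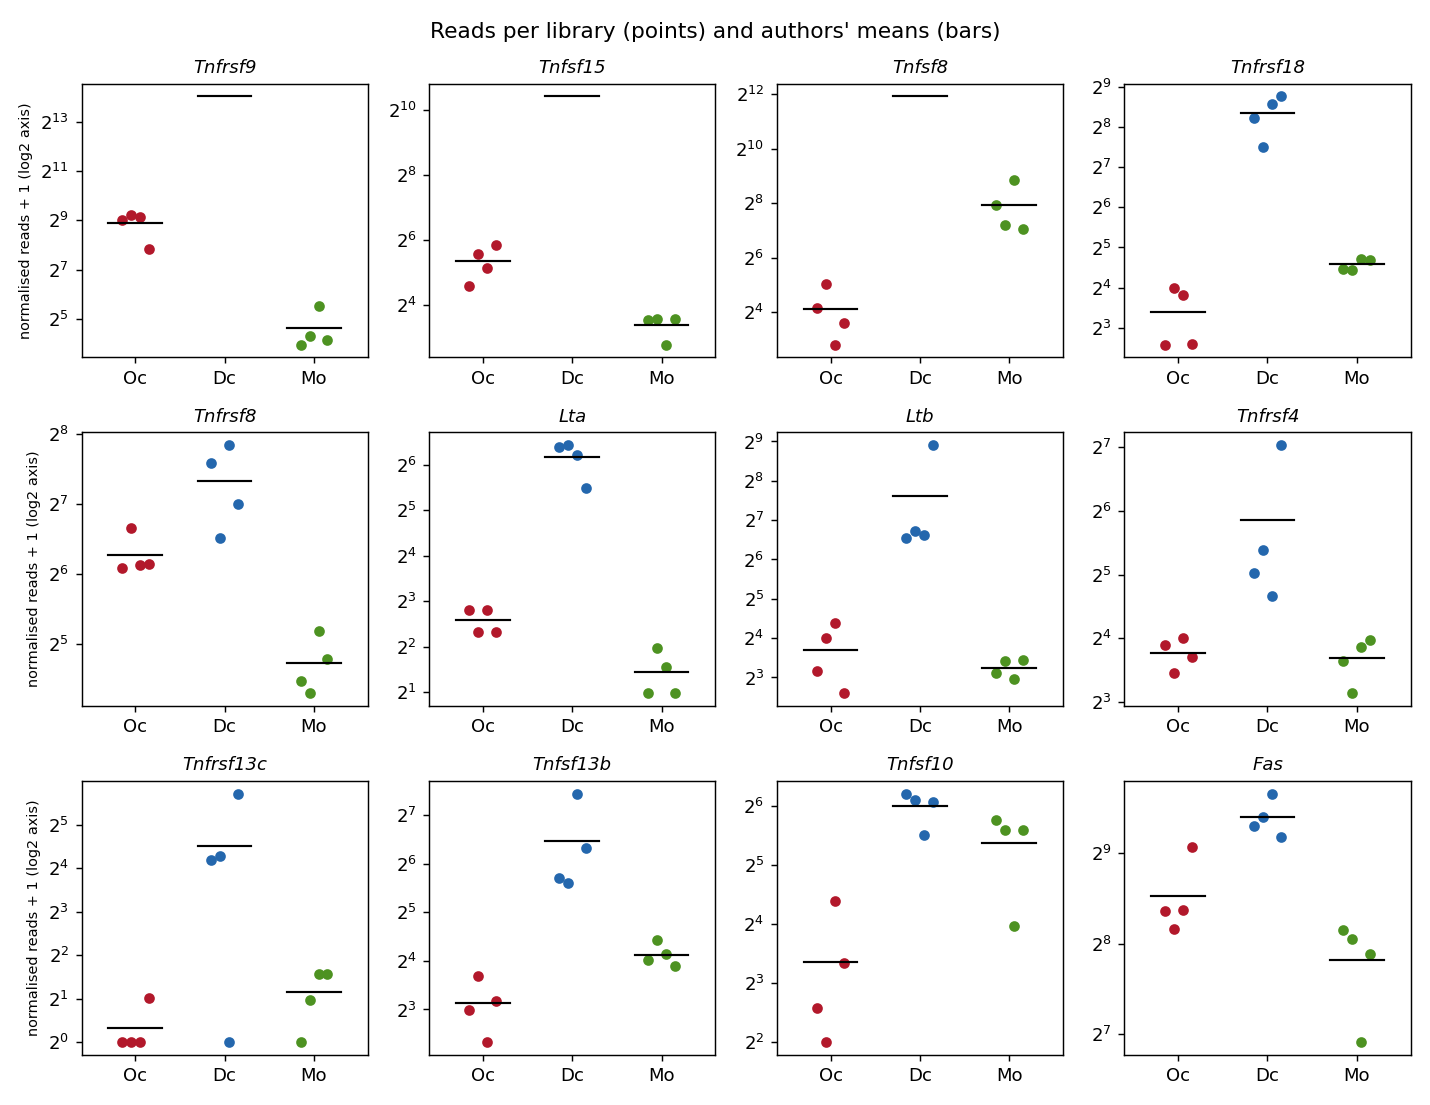
Normalised reads + 1 of 12 members in osteoclasts (Oc), dendritic cells (Dc) and macrophages (Mo), each on its own log2 axis; points are libraries a to d and bars the authors' means. Cell types shown with a bar alone have too many reads to be recovered per library. Single libraries stand apart for Ltb and Tnfrsf4 in dendritic cells, for Tnfsf10 and Tnfrsf9 in macrophages and for Tnfrsf8 in osteoclasts.

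The 3 ligand genes of the MHC region, Ltb, Tnf and Lta, lie within a short stretch of chromosome 17, with 3.06 kb between Ltb and Tnf and 1.16 kb between Tnf and Lta. Each had its highest mean in dendritic cells, but their levels and their order in the other cell types were not alike. Tnf, the founding cytokine of the family, had authors' means of 943 in osteoclasts, 3397 in dendritic cells and 1518 in macrophages. It was the only one of the 3 called lower in osteoclasts than in macrophages (log2 fold change -0.68 in the authors' deposited table, SE 0.23, adjusted p 0.0156). That table gave -1.83 (SE 0.23, adjusted p 5.81e-14) for osteoclasts over dendritic cells and 1.15 (SE 0.23, adjusted p 4.84e-06) for dendritic cells over macrophages.

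Lta, which encodes lymphotoxin alpha, had 5.96, 3.97, 6.01 and 4.03 normalised reads in osteoclast libraries, 82.4, 85.5, 73.5 and 44.1 in dendritic cell libraries, and 0.959, 2.92, 1.95 and 0.983 in macrophage libraries. The 3 cell types did not overlap. In the authors' deposited table, osteoclasts were 13.2-fold below dendritic cells (-3.73, SE 0.42, adjusted p 7.83e-18) and dendritic cells 33.0-fold above macrophages (5.04, SE 0.53, adjusted p 5.92e-20). The difference between osteoclasts and macrophages, on 20 and 7 reads in all, missed the threshold (1.32, SE 0.60, adjusted p 0.0823).

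Ltb encodes lymphotoxin beta, which anchors lymphotoxin alpha to the membrane. It had 7.95, 14.9, 20.0 and 5.04 normalised reads in osteoclasts, 92.6, 105, 98.0 and 481 in dendritic cells, and 7.67, 9.74, 6.82 and 9.83 in macrophages. Dendritic cell library d stood apart, and the other 3 dendritic cell libraries still lay above every osteoclast and macrophage library. The authors' deposited table gives Ltb fold changes but no p-value, so its reads were tested on log2(normalised reads + 1) with a two-sided exact permutation test over 4 libraries against 4. The difference was -3.67 for osteoclasts minus dendritic cells and 3.97 for dendritic cells minus macrophages, each with p 0.0286, the smallest such a test can give, and 0.0429 adjusted over the 3 comparisons. For osteoclasts minus macrophages it was 0.30 (p 0.457). Without library d the log2 ratio of the Ltb means, with 1 added, was -2.94 in place of -3.91 for osteoclasts over dendritic cells and 3.39 in place of 4.36 for dendritic cells over macrophages.

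The B cell survival ligands split. Tnfsf13b, or BAFF, had 6.95, 11.9, 4.01 and 8.06 normalised reads in osteoclasts, 50.9, 47.8, 173 and 79.0 in dendritic cells, and 15.3, 20.5, 16.6 and 13.8 in macrophages. No 2 cell types overlapped. In the authors' deposited table osteoclasts were below dendritic cells (-3.34, SE 0.46, adjusted p 4.45e-12) and dendritic cells above macrophages (2.31, SE 0.43, adjusted p 4.85e-07), while the osteoclast and macrophage difference missed the threshold (-1.02, SE 0.48, adjusted p 0.0962). Tnfsf13, or APRIL, had authors' means of 1625, 1322 and 1246 in osteoclasts, dendritic cells and macrophages and was called in no comparison. The 95% interval of its deposited log2 fold change ran from -0.10 to 0.86 for osteoclasts over macrophages, -0.19 to 0.77 for osteoclasts over dendritic cells and -0.40 to 0.57 for dendritic cells over macrophages.

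Tnfsf13 shares its locus on chromosome 11 with Tnfsf12, the gene of TWEAK, and with Tnfsfm13, a readthrough of both. Of the 50-base stretches in the transcripts, 57.3% of those of Tnfsf13, 46.8% of Tnfsf12 and 69.7% of Tnfsfm13 are also found in another gene on the same strand, so a read of 50 bases cannot always be assigned and the 3 levels are uncertain. Tnfsf12 had authors' means of 1301, 1928 and 1899.8 in osteoclasts, dendritic cells and macrophages. Its calls in the authors' deposited table, -0.56 for osteoclasts over dendritic cells (SE 0.21, adjusted p 0.0249) and -0.54 for osteoclasts over macrophages (SE 0.21, adjusted p 0.0394), were both lost with equal totals. Tnfsfm13 had means of 1606, 1758 and 1673 and was called in no comparison. Tnfsf13os, an antisense gene of the locus, had 100.3, 78.5, 117 and 216 normalised reads in osteoclasts, 73.3, 97.7, 47.0 and 107 in dendritic cells, and 139, 258, 119 and 173 in macrophages. Dendritic cells lay below macrophages without overlap (-1.06 in the authors' deposited table, SE 0.35, adjusted p 0.00826), and 12.2% of its 50-base stretches lie opposite another gene.

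Tnfsf10 and Tnfsf14 were lowest in osteoclasts. Tnfsf10, or TRAIL, had 4.97, 2.98, 20.0 and 9.07 normalised reads in osteoclasts, 73.3, 68.2, 44.9 and 66.7 in dendritic cells, and 53.7, 47.7, 14.6 and 47.2 in macrophages. Osteoclasts were called lower than dendritic cells (-2.63 in the authors' deposited table, SE 0.47, adjusted p 1.56e-07) and lower than macrophages (-2.02, SE 0.47, adjusted p 0.000168). Macrophage library c lay within the range of the osteoclasts. As a log2 ratio of means with 1 added, these differences were -2.65 and -2.03, and without osteoclast library c they were -3.27 and -2.65. Dendritic cells and macrophages were not told apart (0.61, 95% interval -0.24 to 1.45).

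Tnfsf14, or LIGHT, binds Tnfrsf14 and Ltbr. It had 79.5, 48.7, 57.1 and 74.6 normalised reads in osteoclasts, 175, 94.7, 168 and 125 in dendritic cells, and 101, 112, 171 and 84.5 in macrophages. Every osteoclast library lay below every other library. The authors' deposited table gave -1.10 for osteoclasts over dendritic cells (SE 0.28, adjusted p 0.000337) and -0.84 for osteoclasts over macrophages (SE 0.28, adjusted p 0.0118), with 0.26 for dendritic cells over macrophages (95% interval -0.27 to 0.79).

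The remaining ligands were scarce. Tnfsf18, the GITR ligand, had 1.99, 1.99, 6.01 and 5.04 normalised reads in osteoclasts, 23.4, 35.6, 10.2 and 3.08 in dendritic cells, and 8.63, 2.92, 0.974 and 2.95 in macrophages. Dendritic cells were called higher than both in the authors' deposited table (osteoclasts over dendritic cells -2.02, SE 0.69, adjusted p 0.0122; dendritic cells over macrophages 1.98, SE 0.69, adjusted p 0.0137), although dendritic cell library d lay within the range of both. Cd70, the ligand of Cd27, had 0 reads in osteoclasts, 2, 7, 1 and 7 reads in dendritic cell libraries a to d and 0 reads in macrophages. With a floor of 3 reads over the 4 libraries of a cell type, dendritic cells were at least 5.79-fold above osteoclasts and at least 5.95-fold above macrophages, and the authors' adjusted p was 0.00244 and 0.00228. Tnfsf11, the gene of RANKL, had 1 read in all, in dendritic cell library d, although RANKL protein had been added to the osteoclast cultures. Fasl, the Fas ligand, had 0 reads.

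The authors' deposited table holds an adjusted p for 11 ligands, of which 10 were called lower and 0 higher in osteoclasts than in dendritic cells, 7 were called higher and 0 lower in dendritic cells than in macrophages (both counts of 0 stayed 0 at the authors' unadjusted p under 0.05), and 1 was called higher and 5 lower in osteoclasts than in macrophages. Of the receptors with an adjusted p, 12 of 22 were called lower and 0 higher in osteoclasts than in dendritic cells. In dendritic cells over macrophages 11 of 21 were called higher and 2 lower, and in osteoclasts over macrophages 5 of 20 were called higher and 5 lower. Of all genes tested, 20.1% were called lower and 16.8% higher in osteoclasts than in dendritic cells, 20.3% higher and 16.4% lower in dendritic cells than in macrophages, and 14.5% higher and 14.7% lower in osteoclasts than in macrophages.

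Among receptors of activated lymphocytes, Tnfrsf9 differed most. Tnfrsf9, or CD137, a costimulatory receptor best known on T cells, had 523, 602, 557 and 226 normalised reads in osteoclast libraries, a mean of 17091 by the authors' table in dendritic cells, and 14.4, 18.5, 44.8 and 16.7 in macrophage libraries. The order was dendritic cells, osteoclasts, macrophages, and each step was called. Osteoclasts were 28.3-fold below dendritic cells in the authors' deposited table (-4.83, SE 0.56, adjusted p 7.63e-17) and 15.4-fold above macrophages (3.95, SE 0.57, adjusted p 1.12e-10). Dendritic cells were 437-fold above macrophages there (8.77, SE 0.57, adjusted p 3.25e-52). These folds follow the deposited log2 fold changes and are smaller than the ratios of the authors' means. For osteoclasts over macrophages the log2 ratio of the Tnfrsf9 means, with 1 added, was 4.28 in place of 3.95.

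Tnfrsf18, or GITR, had 5, 15, 13 and 5 reads in osteoclast libraries a to d, 294, 177, 375 and 427 in dendritic cell libraries, and 22, 21, 26 and 25 in macrophage libraries. The 3 cell types did not overlap, with osteoclasts lowest. All 3 differences were called in the authors' deposited table: -4.96 for osteoclasts over dendritic cells (SE 0.36, adjusted p 1.12e-40), -1.21 for osteoclasts over macrophages (SE 0.39, adjusted p 0.00891) and 3.75 for dendritic cells over macrophages (SE 0.32, adjusted p 2.19e-29). An annotated gene on the opposite strand, Gm16008, holds 18.7% of its 50-base stretches.

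Tnfrsf8, or CD30, the receptor of Tnfsf8, had 66.6, 99.4, 69.1 and 69.5 normalised reads in osteoclasts, 190.3, 90.6, 229 and 127 in dendritic cells, and 21.1, 18.5, 35.1 and 26.5 in macrophages. Macrophages lay below all libraries of the other 2 types. The deposited table of the authors gave -1.04 for osteoclasts over dendritic cells (SE 0.30, adjusted p 0.00179), 1.55 for osteoclasts over macrophages (SE 0.32, adjusted p 1.65e-05) and 2.59 for dendritic cells over macrophages (SE 0.32, adjusted p 3.38e-15). Its ligand Tnfsf8 had the other order between osteoclasts and macrophages.

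Tnfrsf4, or OX40, lies 9.55 kb from Tnfrsf18 on chromosome 4. It had 14, 10, 15 and 12 reads in osteoclast libraries, 31, 40, 24 and 127 in dendritic cell libraries, and 12, 8, 14 and 15 in macrophage libraries. Dendritic cells were called higher than both in the authors' deposited table, with -2.04 for osteoclasts over dendritic cells (SE 0.49, adjusted p 0.000138) and 2.13 for dendritic cells over macrophages (SE 0.49, adjusted p 6.58e-05). Without dendritic cell library d the log2 ratio of the Tnfrsf4 means, with 1 added, was -1.28 in place of -2.07 and 1.36 in place of 2.16, and the 3 other dendritic cell libraries still lay above the rest. Osteoclasts over macrophages gave 0.09 (95% interval -0.91 to 1.09).

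The TNF receptors themselves were abundant everywhere. Tnfrsf1a, the death domain receptor of TNF, had authors' means of 4456, 4325 and 5477 in osteoclasts, dendritic cells and macrophages. It was the member called highest in macrophages: the authors' deposited table gave -0.30 for osteoclasts over macrophages (SE 0.09, adjusted p 0.00521) and -0.34 for dendritic cells over macrophages (SE 0.09, adjusted p 0.000698). Osteoclasts over dendritic cells gave 0.04 (SE 0.09, adjusted p 0.769), and with equal totals the difference was called, with osteoclasts higher. Tnfrsf1b, the TNF receptor without a death domain, had means of 8265, 16117 and 10937, and for osteoclasts over dendritic cells a lower level was called (-0.95 in the authors' deposited table, SE 0.28, adjusted p 0.00346). Its other differences were not called, with -0.40 for osteoclasts over macrophages (95% interval -0.96 to 0.16) and 0.55 for dendritic cells over macrophages (-0.01 to 1.11). Tnfrsf1b and Tnfrsf8 lie 20.3 kb apart on chromosome 4.

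The other death domain receptors did not share an order. Fas had 328, 285, 329 and 534 normalised reads in osteoclasts, 629.8, 676, 807 and 577 in dendritic cells, and 283, 263, 119 and 235 in macrophages. The 3 cell types did not overlap. The authors' deposited table gave -0.85 for osteoclasts over dendritic cells (SE 0.26, adjusted p 0.00445), 0.70 for osteoclasts over macrophages (SE 0.27, adjusted p 0.0307) and 1.56 for dendritic cells over macrophages (SE 0.26, adjusted p 3.28e-08). Tnfrsf21, or death receptor 6, had authors' means of 774, 2166 and 1421 in osteoclasts, dendritic cells and macrophages, so that osteoclasts were lowest here. Its deposited log2 fold changes were -1.47 for osteoclasts over dendritic cells (SE 0.18, adjusted p 5.75e-15), -0.87 for osteoclasts over macrophages (SE 0.18, adjusted p 1.85e-05) and 0.60 for dendritic cells over macrophages (SE 0.18, adjusted p 0.00307), by the authors' deposited table.

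Tnfrsf10b, the mouse death receptor of TRAIL, had means of 277 ± 14.5 normalised reads in osteoclasts, 365 ± 48.7 in dendritic cells and 279.6 ± 77.2 in macrophages (SD, n = 4 each) and was called in no comparison. Osteoclast libraries lay below dendritic cell libraries without overlap, yet the adjusted p in the authors' deposited table was 0.0961 (-0.40, SE 0.19). Tnfrsf25, the receptor of Tnfsf15, had 3, 3, 9 and 1 reads in osteoclast libraries a to d, 2, 2, 1 and 4 in dendritic cell libraries and 0, 1, 0 and 1 in macrophage libraries. With 16 reads in osteoclasts and 2 in macrophages the ratio of totals was 8.22 (95% exact interval 1.93 to 73.7, counting error only), and the difference was called (2.23 in the authors' deposited table, SE 0.89, adjusted p 0.0443). As a log2 ratio of means with 1 added it was 1.75, and 1.16 without osteoclast library c. The ligand Tnfsf15 had its highest mean in dendritic cells and the receptor in osteoclasts, where Tnfrsf25 was not called apart from dendritic cells (0.69, SE 0.81, adjusted p 0.557).

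Of Ltbr, Tnfrsf14 and Tnfrsf12a, the last was called between osteoclasts and macrophages, and the others were called in no comparison. Ltbr, the lymphotoxin beta receptor, had authors' means of 1976, 1902 and 2103 in osteoclasts, dendritic cells and macrophages, and the 95% intervals of its deposited log2 fold changes were -0.41 to 0.23 for osteoclasts over macrophages, -0.27 to 0.38 for osteoclasts over dendritic cells and -0.47 to 0.18 for dendritic cells over macrophages. Tnfrsf14, the receptor also called HVEM, had 397 ± 123, 365 ± 85.1 and 315 ± 107 normalised reads in osteoclasts, dendritic cells and macrophages (SD, n = 4 each) and was called in no comparison. Tnfrsf12a, the TWEAK receptor, had 347, 318, 178 and 191 normalised reads in osteoclasts, 206, 164, 145 and 167 in dendritic cells, and 75.7, 99.3, 217 and 129 in macrophages. Osteoclasts were called above macrophages (0.97 in the authors' deposited table, SE 0.31, adjusted p 0.00923), with macrophage library c inside the range of the osteoclasts. Over dendritic cells the osteoclast difference was 0.59 (SE 0.31, adjusted p 0.129), and it was called with equal totals.

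Among the receptors of BAFF and APRIL, only Tnfrsf13b was abundant. Tnfrsf13b, or TACI, had authors' means of 395, 1656 and 1017 in osteoclasts, dendritic cells and macrophages. The authors' deposited table gave -2.06 for osteoclasts over dendritic cells (SE 0.14, adjusted p 3.59e-48), -1.36 for osteoclasts over macrophages (SE 0.14, adjusted p 1.67e-20) and 0.70 for dendritic cells over macrophages (SE 0.14, adjusted p 1.57e-06). The osteoclast libraries held 390.4, 421, 300.4 and 468 normalised reads. Tnfrsf13c, the BAFF receptor of B cells, had 1 read in osteoclasts, in library d, against 17, 18, 0 and 50 reads in dendritic cell libraries and 0, 1, 2 and 2 in macrophage libraries. Dendritic cell library c had no read while the others had at least 17. The authors' adjusted p was 2.26e-05 for osteoclasts over dendritic cells (-4.39, SE 0.95) and 0.000876 for dendritic cells over macrophages (3.35, SE 0.90) in their deposited table. Without dendritic cell library d, the log2 ratio of the Tnfrsf13c means with 1 added was -3.36 in place of -4.18 and 2.53 in place of 3.35. Tnfrsf17, or BCMA, had 4 reads in osteoclasts, 3 in dendritic cells and 5 in macrophages.

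B cell markers bear on these genes. Among markers of B cells and plasma cells, Ighm had authors' means of 57.6, 316 and 891 in osteoclasts, dendritic cells and macrophages, and Cd79b had 1.76, 8.68 and 38.2. Ms4a1 had 7.49, 9.70 and 9.97, while Cd79a, Pax5 and Jchain had means under 2 in every cell type. In dendritic cell library c, which had no Tnfrsf13c read, Ighm was at 173 normalised reads, against 283, 301 and 507 in libraries a, b and d, and Cd79b was at 8.17, against 5.09, 7.13 and 14.4. The part of such cells in the Tnfrsf13c values was not tested.

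The decoys of TRAIL and a related receptor form a cluster on chromosome 7, with 6.08 kb between Tnfrsf26 and Tnfrsf22 and 16.1 kb between Tnfrsf22 and Tnfrsf23. Tnfrsf26 had authors' means of 596, 1950.0 and 1024 in osteoclasts, dendritic cells and macrophages, and the authors' deposited table gave -1.69 for osteoclasts over dendritic cells (SE 0.24, adjusted p 3.14e-11), -0.77 for osteoclasts over macrophages (SE 0.24, adjusted p 0.00732) and 0.92 for dendritic cells over macrophages (SE 0.24, adjusted p 0.000622). Tnfrsf23, a mouse decoy, had means of 822, 1411 and 624, with -0.77 for osteoclasts over dendritic cells (SE 0.26, adjusted p 0.00986), a call lost with equal totals, and 1.16 for dendritic cells over macrophages (SE 0.26, adjusted p 3.94e-05). Tnfrsf22, the other mouse decoy, had 379 ± 52.8, 350.2 ± 52.5 and 306 ± 58.0 normalised reads in osteoclasts, dendritic cells and macrophages (SD, n = 4 each) and was called in no comparison. The 3 neighbours were thus called in 3, 2 and 0 comparisons. Tnfrsf22 and Tnfrsf23 are near copies: 27.4% of the 50-base stretches of Tnfrsf22 and 18.0% of those of Tnfrsf23 are found in another gene on the same strand, mostly in each other, so both levels are uncertain.

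Tnfrsf11b encodes osteoprotegerin, the secreted decoy of RANKL. It had 0, 1, 2 and 0 reads in osteoclast libraries, 10, 8, 5 and 4 in dendritic cell libraries and 0 in macrophages. Dendritic cells were called higher than osteoclasts (-2.72 for osteoclasts over dendritic cells in the authors' deposited table, SE 0.86, adjusted p 0.00585) and higher than macrophages (adjusted p 0.000115). The ratio of totals for dendritic cells over osteoclasts was 9.19 (95% exact interval 2.83 to 47.4), and over macrophages it was at least 9.45 with the floor of 3 reads. Osteoprotegerin is best known from osteoblasts and stromal cells. Of 8 markers of those cells, 7 were above 0 in dendritic cells, 6 in osteoclasts and 7 in macrophages. The 8 summed to 956 in dendritic cells, with Lepr alone at 889, against 17.8 in osteoclasts and 19.7 in macrophages. Bglap was at 0 in dendritic cells. The part of osteoblasts and stromal cells in the Tnfrsf11b values was not tested.

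The last receptors were near the limit of detection. Cd27, the receptor of Cd70, had 2, 3, 6 and 3 reads in osteoclast libraries, 2, 0, 3 and 1 in dendritic cell libraries and 5, 6, 11 and 4 in macrophage libraries. Dendritic cells were below macrophages without overlap (-1.77 in the authors' deposited table, SE 0.71, adjusted p 0.0371), which with Tnfrsf1a and Tnfsf13os makes the 3 members called lower there. Tnfrsf19, or TROY, had 0 reads in osteoclasts, 4 in dendritic cells and 0 in macrophages.

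Seen by pair, Tnf and its receptors, APRIL and TACI, TWEAK and its receptor, LIGHT and its receptors, and TRAIL with its death receptor were each detected on both sides in all 3 cell types. The CD30 pair was lopsided between cell types: per kilobase the authors' mean of the ligand Tnfsf8 was 4.32 in osteoclasts, 1021 in dendritic cells and 64.2 in macrophages, and that of the receptor Tnfrsf8 was 22.0, 46.0 and 7.31. The receptor exceeded its ligand in osteoclasts, and the ligand exceeded the receptor in dendritic cells and macrophages. For TL1A, the ligand Tnfsf15 stood at 12.0, 412 and 2.83 per kilobase and the receptor Tnfrsf25 at 1.75, 1.01 and 0.215.

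The genes that carry the receptors' signals were called in both directions. Of 42 transducers, all with an adjusted p, 13 were called higher and 4 lower in osteoclasts than in macrophages, 9 higher and 9 lower in osteoclasts than in dendritic cells, and 21 higher and 7 lower in dendritic cells than in macrophages. Of all genes tested, 14.5% were called higher and 14.7% lower in the first of these comparisons, 16.8% and 20.1% in the second, and 20.3% and 16.4% in the third. The transducers' median deposited log2 fold changes were 0.16, 0.08 and 0.37. The TRAF adaptors were not alike. Traf1, a TRAF induced by NF-kappa-B, had authors' means of 4986, 1999 and 436 in osteoclasts, dendritic cells and macrophages, and the authors' deposited table gave 3.49 for osteoclasts over macrophages (SE 0.18, adjusted p 1.38e-83), 1.31 for osteoclasts over dendritic cells (SE 0.17, adjusted p 7.17e-13) and 2.18 for dendritic cells over macrophages (SE 0.18, adjusted p 2.74e-33). Traf3, which restrains the alternative NF-kappa-B pathway, had means of 3706, 1354 and 1489 and was higher in osteoclasts than in macrophages (1.31, SE 0.13, adjusted p 2.66e-22) and dendritic cells (1.45, SE 0.13, adjusted p 8.50e-28). Both adaptors had their highest mean in osteoclasts.

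Traf5 had authors' means of 262, 779 and 226 in osteoclasts, dendritic cells and macrophages. It was higher in dendritic cells than in macrophages (1.78 in the authors' deposited table, SE 0.12, adjusted p 2.30e-46), with -1.57 for osteoclasts over dendritic cells (SE 0.12, adjusted p 7.16e-37). Traf4 had means of 33.9, 122 and 25.3, with -1.81 for osteoclasts over dendritic cells (SE 0.29, adjusted p 2.29e-09). Bid, which links death receptors to mitochondria, had means of 1295, 787 and 2223 and was lower in osteoclasts than in macrophages (-0.78, SE 0.13, adjusted p 1.63e-07) and lower in dendritic cells than in macrophages (-1.49, SE 0.14, adjusted p 1.40e-26). Map3k5, the kinase ASK1, had means of 761, 461 and 1005, with -0.40 for osteoclasts over macrophages (SE 0.12, adjusted p 0.00347) and -1.12 for dendritic cells over macrophages (SE 0.12, adjusted p 7.13e-20).

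**Figure D4:**
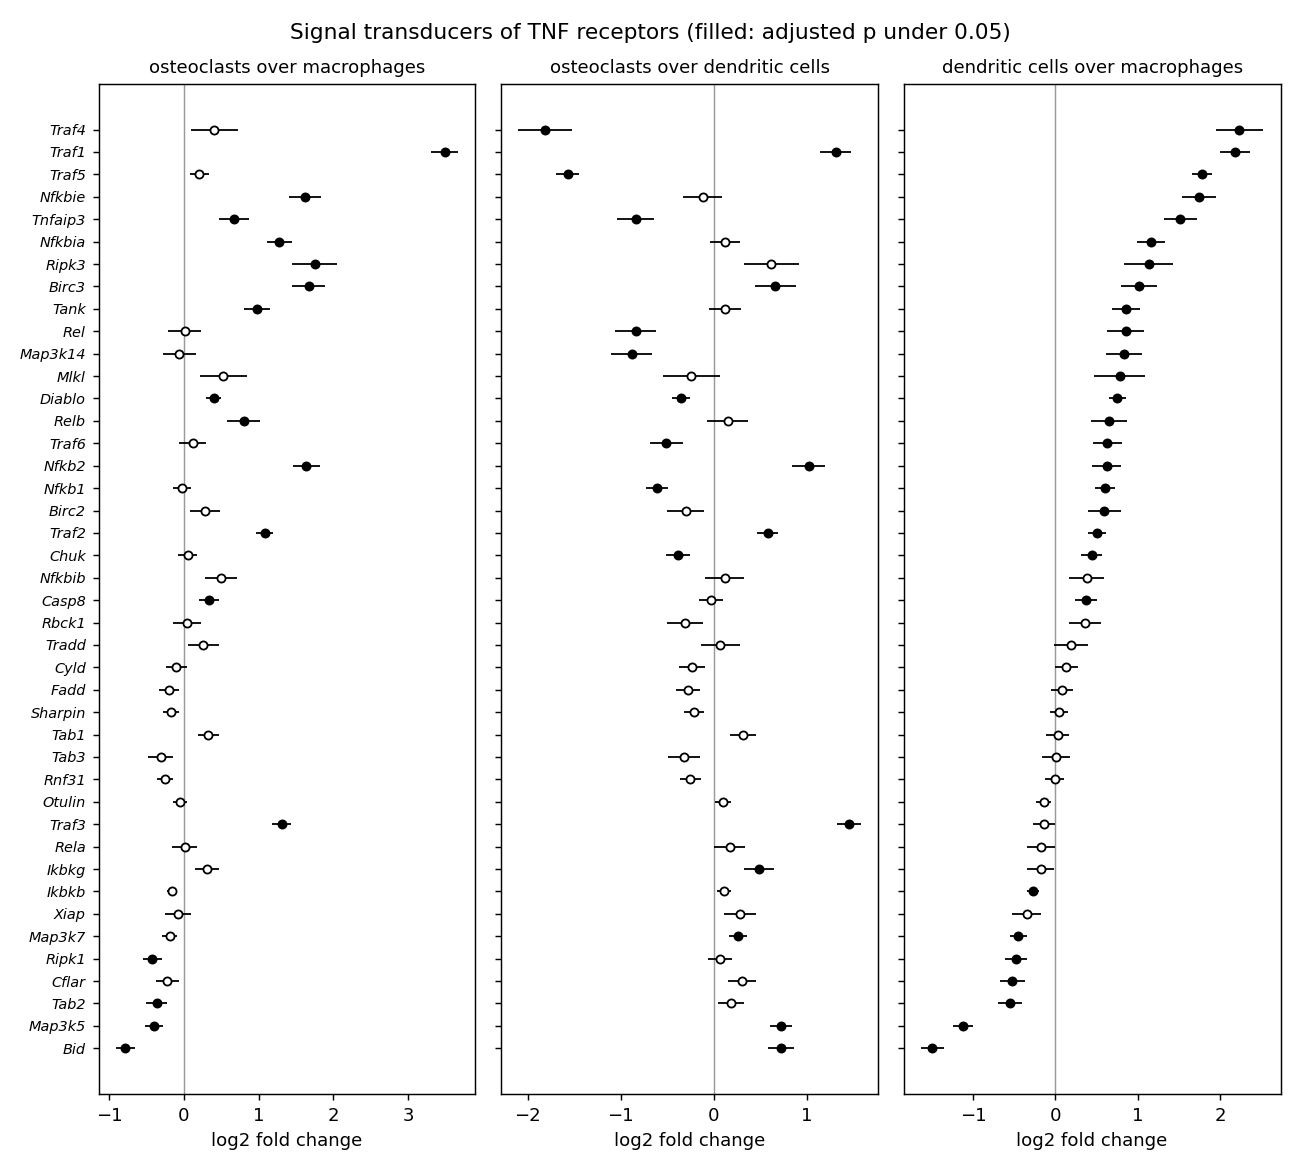
Deposited log2 fold changes of the 42 transducers, ordered by dendritic cells over macrophages, for osteoclasts over macrophages, osteoclasts over dendritic cells and dendritic cells over macrophages; bars are ±1 standard error, computed from the authors' p-value, and filled points have an adjusted p under 0.05. Traf1 lies right of 0 in all panels, and Traf3 does so for osteoclasts over either other type.

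Of 8 genes that cut or process TNF ligands, 0 were called between osteoclasts and macrophages (0 higher and 2 lower at the authors' unadjusted p under 0.05), 3 were called higher and 3 lower in osteoclasts than in dendritic cells, and 3 higher and 4 lower in dendritic cells than in macrophages. In either direction, 29.3%, 36.9% and 36.7% of all genes tested were called in these comparisons. Adam17, the protease that releases TNF, had authors' means of 10158, 7031 and 9623 in osteoclasts, dendritic cells and macrophages (0.53 for osteoclasts over dendritic cells in the authors' deposited table, SE 0.11, adjusted p 2.00e-05). Its cofactors of the iRhom family went opposite ways. Rhbdf1 had means of 104, 14.3 and 128, with 2.79 for osteoclasts over dendritic cells (SE 0.31, adjusted p 7.83e-18) and -3.09 for dendritic cells over macrophages (SE 0.31, adjusted p 6.63e-22). Rhbdf2 had means of 1279.7, 2055 and 1574, with -0.68 for osteoclasts over dendritic cells (SE 0.13, adjusted p 1.27e-06). Furin, a protease that matures BAFF and APRIL, had means of 3339, 6666 and 3321, with 0.99 for dendritic cells over macrophages (SE 0.24, adjusted p 0.000125). Adam10 had means of 8421, 7012 and 10254, with -0.55 for dendritic cells over macrophages (SE 0.14, adjusted p 0.000307). Timp3, an inhibitor of Adam17, had means of 1.00, 24.7 and 2.20, with -3.74 for osteoclasts over dendritic cells (SE 0.84, adjusted p 5.36e-05) and 2.97 for dendritic cells over macrophages (SE 0.81, adjusted p 0.00102).

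Markers of several other cell types, but not of all, summed highest in the dendritic cell group. Those of B cells and plasma cells summed to 68.3 in osteoclasts, 336 in dendritic cells and 941 in macrophages. Those of plasmacytoid dendritic cells summed to 2842, 2967 and 6100.0 in the same order. Of the neutrophil markers, Mpo had its highest mean in macrophages (0.497, 3.06 and 6.59). The 8 neutrophil markers had authors' means summing to 77.6 in osteoclasts, 14582 in dendritic cells and 92.0 in macrophages, the 5 eosinophil markers to 162, 9477 and 56.9, and the 7 markers of mast cells and basophils to 2.50, 574 and 2.68. Of 7 markers of mature dendritic cells, 6 had their highest mean there and Cd40 had it in macrophages (174 in dendritic cells and 403 in macrophages). The sums over the 7 were 1628, 58364 and 1441, of which Ccl22, a chemokine, made up 325, 52708 and 104. Among them Fscn1, an actin-bundling protein of mature dendritic cells, had means of 9.22, 917 and 3.16. The 8 markers of T and NK cells summed to 17.7, 49.5 and 12.4. The 6 of them above 0 in any cell type all had their highest mean in dendritic cells. Klrb1c had the largest of these means (12.0, 28.8 and 4.63). Trbc2 and Ncr1 were at 0 in every library. Cd3e was at 0 in osteoclasts and macrophages and had 1.03 normalised reads in dendritic cell library d. The part of neutrophils, eosinophils, mast cells, T and NK cells and mature dendritic cells in the higher dendritic cell levels of Tnfrsf9, Tnfsf8, Tnfsf15, Tnfrsf18 and the other members was not tested.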

How the data were processed

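RNA was sequenced as single reads of 50 bases from stranded mRNA libraries in 1 lane, per the series' design text and the labels' protocols. The submitters' processing notes name GRCm38 and, with no role or order, DESeq2 2.13, Cufflinks 2.1.1, TopHat2, Bowtie2 and bcl2fastq; the sources used here give no annotation, model or strand setting. The deposited table of 46072 genes holds, per the file headers, means of both cell types of each pair with the authors' log2 fold change and their p-value before and after adjustment. The deposited means are counts divided by size factors, which follows from their values. The log2 fold changes and p-values are the authors' own. The fold change of dendritic cells over macrophages has its sign turned round from the deposited one. Fold differences cited from the authors' deposited table were computed from its log2 fold changes and can be smaller than the ratio of its means. The planned count tests could not be run on means. Standard errors were computed as the log2 fold change over the normal quantile of the p-value, which takes it as a two-sided Wald test. Gene symbols were matched for 45138 identifiers.

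Whole reads per library were recovered from means up to 500 (members up to 1000, where 1 solution existed) within a relative tolerance of 8e-15. All 15160 osteoclast, 16040 dendritic cell and 15809 macrophage genes at or under 500 had 1 solution. Size factors ran from 0.975 to 1.04. The recovery was tested on simulated reads. The exact intervals of ratios of totals and the floors cover counting error only. The intervals of deposited log2 fold changes were computed from the standard errors described above, so they rest on the authors' p-values. The libraries' spread may be partly technical. The members and lists were chosen with earlier results of these data known. The text gives in full each member with an authors' mean of at least 100 or a call, the rest by their reads, and of each list of other pathway genes 2 genes per direction by smallest p; defining markers were chosen for naming from the marker lists. The Ltb test and the count of shared 50-base stretches were added after the data had been seen. Python 3.11.15, numpy 2.4.6, pandas 2.3.3, scipy 1.17.1, numba 0.67.0 and matplotlib 3.10.9 were used. Alternatives were equal totals, upper-quartile scaling, adjustment with no filter, a threshold of 0.01, a ratio of means with a pseudocount of 1, and leaving out each library.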

Additional observations from a re-analysis of the deposited data

Results flagged for a closer look

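A total of 46 groups of 4 libraries, those of a member in a cell type with a mean of at least 10 normalised reads, were checked for a library far from the others, and 5 had one; chance alone flags about 1 in 20. In dendritic cells Ltb had 481 normalised reads in library d, against 92.6 to 105 in the others, and Tnfrsf4 had 130.3 in the same library, against 24.5 to 40.7. In macrophages Tnfrsf9 had 44.8 in library c, against 14.4 to 18.5, and Tnfsf10 had 14.6 in the same library, against 47.2 to 53.7. In osteoclasts Tnfrsf8 had 99.4 in library b, against 66.6 to 69.5.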

How the results depend on the processing

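No paired analysis was possible because the table has means and the recovered libraries carry no replicate number. With equal totals, 3 members in place of 0 were called higher in osteoclasts than in dendritic cells, namely Tnfrsf1a, Tnfrsf12a and Tnfsf13os, and the calls of Tnfrsf23 and Tnfsf12 were lost; between osteoclasts and macrophages Tnfsf12 was lost. Upper-quartile scaling changed no call in any of the 3 comparisons. With no filter, Tnfrsf25 and Tnfsf12 lost their calls between osteoclasts and macrophages. At an adjusted p under 0.01 the lost calls were Fas, Tnfrsf25, Tnf, Tnfsf12 and Tnfsf14 for osteoclasts against macrophages, Tnfsf12 and Tnfsf18 for osteoclasts against dendritic cells, and Tnfsf18 and Cd27 for dendritic cells against macrophages. Under these 4 settings 0 called members turned direction, but this outcome was fixed beforehand. The filter and the threshold leave fold changes as they were. The largest scaling shift, 0.19 in log2, was smaller than the smallest called difference, -0.30 for Tnfrsf1a in osteoclasts over macrophages. Of 34 called differences with reads in both cell types, 0 changed sign and 7 moved by over 1.5 times when a library was left out; they are those of Tnfrsf13c, Tnfrsf25, Tnfrsf4 and Tnfsf10. High members have no values per library here. Calls of members with few reads rest on totals as low as 17 against 0 (Cd70) and 16 against 2 (Tnfrsf25).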

Other observations

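Macrophage library c and dendritic cell library d held the extreme values of several members. Macrophage library c had the highest Tnfrsf9 of its cell type (44.8 normalised reads), the highest Tnfsf8 (456, against 133 to 245 in libraries a, b and d) and the highest Tnfrsf12a (217, against 75.7 to 129). It also had the lowest Fas (119, against 235 to 283) and the lowest Tnfsf10 (14.6). Dendritic cell library d had the highest Ltb, Tnfrsf4 and Tnfrsf13c (481, 130.3 and 51.3 normalised reads). Of these values, only Tnfrsf9 and Tnfsf10 in macrophages and Ltb and Tnfrsf4 in dendritic cells stood apart by the measure of the flagged results. How often each library is highest or lowest over all genes was not computed. By the flagging measure, over genes with an authors' mean of 50 to 500, macrophage library c stood apart for 1.40%. Libraries a, b and d did so for 3.86%, 0.714% and 0.935%. Dendritic cell library d stood apart for 0.772%, against 1.80%, 1.24% and 2.15% for libraries a, b and c.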
